A study of Mus musculus with 6 samples.

Results

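The mouse genes that encode chemokines and chemokine receptors were compared between the M0505 line of mouse ovarian surface epithelial (OSE) cells and STOSE cells. Members were taken by symbol from the annotated expression table, as every gene named as a CC, CXC, CX3C or XC chemokine or as a receptor of that naming scheme. This gave 55 of the 20405 genes on the array, of which 36 encode ligands and 19 encode receptors. M0505 was established from FVB/N mice and used at early passage, and STOSE cells arose from it by spontaneous transformation over long-term culture. Both lines were kept in the same OSE medium, which holds fetal calf serum and EGF, and the sample labels name no added cytokine. Each line was represented by 3 biological replicates on Affymetrix Mouse Gene 1.0 ST arrays, all drawn from 1 line each, so the spread between replicates does not include the spread between independently transformed lines. Transformation and time in culture cannot be told apart in this design.

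Chemokines are small secreted proteins that guide moving cells along a gradient. They are named after the spacing of their first cysteines, and they act through receptors that couple to inhibitory G proteins. Most ligands draw leukocytes into inflamed or lymphoid tissue, whereas atypical receptors bind ligands without that signal and clear them. Epithelial and stromal cells are ordinary sources of ligands, and many ligand genes are induced by Nf-κB or by interferon.

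Values are robust multi-array average (RMA) log2 values, on which a difference of 1 is a 2-fold difference. They are read here between lines for the same gene and not between genes, because probes differ in brightness. A call required both an adjusted p under 0.05 from limma, computed over all 20405 genes, and a difference of at least 2-fold between the lines. The background level was set at a log2 value of 4.74, under which 95% of the values from 1134 probe sets for olfactory receptor genes fall. Surface epithelium markers were above this level in both lines for 11 of 11 genes, *Cdh1* only just (4.79 in M0505, 4.82 in STOSE). Of the 11, the keratin genes *Krt7*, *Krt8* and *Krt19* were called lower in STOSE cells, with log2 differences of −1.03, −4.55 and −5.56, and 0 were called higher. At the adjusted p alone 8 of the 11 were lower and 0 higher, against 24.8% of all genes lower. *Wt1* was among the 8, at 11.39 in M0505 and 10.76 in STOSE cells. Of 22 leukocyte markers, 4 were above background in M0505 cells and 7 in STOSE cells. The pan-leukocyte gene *Ptprc* was under it in both lines (3.79 and 3.81). The linear RMA values of the 22 markers summed to 1144.5 to 1400.2 on the M0505 arrays and to 638.0 to 655.0 on the STOSE arrays, and *Cd68*, a lysosomal gene of macrophages and of other cells, was the 1 called gene of that list (9.78 in M0505, 6.96 in STOSE). Without *Cd68* the sums turned round, to 421.8 to 427.5 on the M0505 arrays and 499.6 to 535.0 on the STOSE arrays. Of the 22 markers 20 had a positive log2 difference, as had 12387 of all 20405 genes. Of the genes under the background in both lines, 4172 of 5643 were positive, and 15 of the 22 markers lay there. At the adjusted p alone 6 markers were higher in STOSE cells, or 27.3%, against 31.6% of all genes, and 1 was lower. Among the 6 were *Cd14* (0.97) and *Lyz2* (0.56), the latter under the background in both lines. Of 10 endothelial markers *Kdr* and *Esam* were called lower in STOSE cells and 0 higher, and of 8 fibroblast markers *Thy1* was called higher and *Col1a2* lower. The part of these marker differences in the results below was not tested.

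At the call threshold 6 of the 55 genes changed, or 10.9%, against 12.5% of all genes. *Cxcl12*, *Ccl20*, *Ccl9* and the receptor gene *Cxcr7* rose in STOSE cells, and *Cxcl14* and the receptor gene *Ccr7* fell. The 4 rises were 7.27% of the family, against 4.9% of all genes called higher, and the 2 falls were 3.64%, against 7.59% of all genes called lower. The median log2 fold change of the 55 genes was 0.12, against 0.08 for all genes. In 29 of the 55 genes, or 52.7%, both line means lay under the background level, which was so for 27.7% of all genes. The 26 that remained were 20 of the 36 ligands and 6 of the 19 receptors, and the 6 called genes were 23.1% of them, against 17.1% called among all genes above background in at least 1 line. Of the called genes, *Ccl9* and *Cxcr7* were above background only in STOSE cells, where they were called higher. Both shares are therefore not independent of the calls. A gene listed under the background may still be expressed, since probe brightness differs, and in RNA of whole cultures fewer cells of a type and less RNA per cell cannot be told apart.

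**Figure D1:**
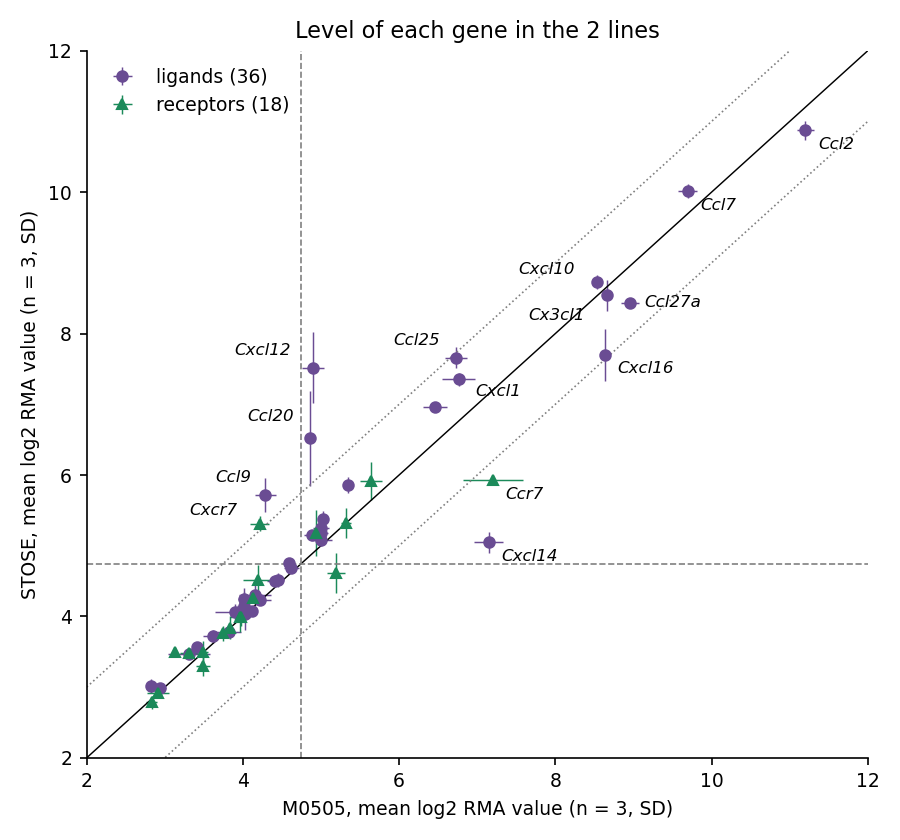
Mean log2 RMA value of the ligand and receptor genes reported here in M0505 cells (horizontal) and STOSE cells (vertical), with error bars of 1 SD over 3 arrays, circles for ligands and triangles for receptors. The solid line marks equal values, the dotted lines a 2-fold difference and the dashed lines the olfactory receptor 95th percentile of 4.74. *Cxcl12*, *Ccl20*, *Ccl9* and *Cxcr7* lie above the band, *Cxcl14* and *Ccr7* below it, and most receptors sit in the lower left corner.

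Promoter sequences of the called ligand genes are given first, since these are the genes whose RNA moved most. They come from RefSeq with assembly GRCm38.p6, run from 250 bases before to 50 bases after the annotated start, and were present for 40 of the 55 genes as 44 promoters. The deposited table names no build, and no array value rests on these coordinates. *Ccl20* (chr1:83116516-83116815, plus strand) and *Ccl9* (chr11:83578587-83578886, minus strand) are shown because each holds 1 match to the κB consensus, the binding motif of Nf-κB factors, which is in capitals and lies on the strand opposite to the gene. *Cxcl12* (chr6:117168285-117168584, plus strand) and *Cxcl14* (chr13:56296502-56296801, minus strand) are the genes with the largest rise and the largest fall, and the capitals mark GGGCGG on either strand, the core of the GC box.
Ccl20: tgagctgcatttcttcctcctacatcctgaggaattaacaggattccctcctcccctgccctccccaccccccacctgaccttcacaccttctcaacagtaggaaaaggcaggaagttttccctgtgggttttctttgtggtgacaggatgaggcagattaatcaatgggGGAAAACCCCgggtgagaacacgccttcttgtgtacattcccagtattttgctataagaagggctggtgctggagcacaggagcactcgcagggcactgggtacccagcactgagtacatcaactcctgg
Ccl9: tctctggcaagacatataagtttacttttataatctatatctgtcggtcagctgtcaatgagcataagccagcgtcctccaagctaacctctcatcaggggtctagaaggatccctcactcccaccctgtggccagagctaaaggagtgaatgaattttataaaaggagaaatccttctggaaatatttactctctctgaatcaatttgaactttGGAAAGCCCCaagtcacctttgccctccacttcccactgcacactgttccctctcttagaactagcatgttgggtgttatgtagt
Cxcl12: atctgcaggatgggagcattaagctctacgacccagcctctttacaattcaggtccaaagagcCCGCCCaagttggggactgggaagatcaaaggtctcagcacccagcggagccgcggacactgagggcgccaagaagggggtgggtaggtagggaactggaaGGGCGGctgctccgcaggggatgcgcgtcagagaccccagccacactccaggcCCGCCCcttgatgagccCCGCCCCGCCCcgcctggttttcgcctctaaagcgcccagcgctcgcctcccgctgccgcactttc
Cxcl14: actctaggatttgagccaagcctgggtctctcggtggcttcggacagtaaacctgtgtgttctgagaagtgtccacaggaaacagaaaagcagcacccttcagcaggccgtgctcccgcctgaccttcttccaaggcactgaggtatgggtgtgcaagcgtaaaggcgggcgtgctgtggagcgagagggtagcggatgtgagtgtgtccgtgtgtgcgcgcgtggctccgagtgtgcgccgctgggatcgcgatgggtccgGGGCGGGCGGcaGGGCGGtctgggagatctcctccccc
The κB match begins 80 bases before the start in *Ccl20* and 35 bases before it in *Ccl9*. *Ccl9* also holds 1 TGANTCA, the AP-1 motif, and 3 matches of TATAAA, of which a pair overlap on opposite strands. *Cxcl12* has 5 GGGCGG matches and *Cxcl14* has 3, and neither promoter holds the κB consensus. The CpG content separates the same pairs. The ratio of observed to expected CpG was 0.145 in *Ccl20* and 0.144 in *Ccl9*, against 0.639 in *Cxcl12* and 0.772 in *Cxcl14*, with a median of 0.384 over 32851 mouse promoters.

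Searched on both strands, the κB consensus was found in 9 of the 44 promoters of the family (20.5%) and in 4.51% of all promoters of that length. TATAAA was found in 12 (27.3%, against 13.6%), TGANTCA in 7 (15.9%, against 7.81%), the core of the interferon-stimulated response element in 3 (6.82%, against 3.44%) and GGGCGG in 10 (22.7%, against 35.7%). The 9 genes with a κB match did not move alike. *Ccl20* and *Ccl9* were called higher, *Cxcl1* and *Cxcl10* were higher at the adjusted p alone, and *Ccl27a* was lower at the adjusted p alone. *Cxcl2*, *Cxcl3*, *Ccr3* and *Ccr6* did not pass, but all of them lay under the background in both lines, where a change may not be seen. These matches are descriptions of sequence and no binding was measured.

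*Cxcl12*, the ligand of the receptors CXCR4 and CXCR7 and a retention signal for stem cells and lymphocytes, showed the largest difference of the family. Its probe set (10541075) read 4.97, 4.74 and 4.98 on the M0505 arrays and 8.03, 7.51 and 7.02 on the STOSE arrays. All 3 STOSE values lay at least 2 units above every M0505 value, and the M0505 values sat at the background level. The log2 difference between STOSE and M0505 cells was 2.62 (standard error, SE, 0.22, limma adjusted p = 1.64e-05), a 6.15-fold rise that was 5.15-fold without STOSE replicate 1 and 7.32-fold without STOSE replicate 3. By size of change it ranked 379 among the 20405 genes.

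The 2 receptors of *Cxcl12* went opposite ways. *Cxcr7*, named *Ackr3* in RefSeq and known as a scavenger of CXCL12, read 4.12, 4.35 and 4.18 in M0505 cells and 5.21, 5.32 and 5.41 in STOSE cells (probe set 10348451). The ranges did not overlap, and the gene passed from under the background to above it. It rose 2.14-fold (log2 difference 1.10, SE 0.08, adjusted p = 8.78e-06), or at least 1.49-fold when the M0505 level is set to the background. *Cxcr4*, the signaling receptor, read 5.33, 5.14 and 5.12 against 4.29, 4.79 and 4.77. It was lower in STOSE cells at the adjusted p alone, with a log2 difference of −0.58 (95% interval −0.89 to −0.27, adjusted p = 0.00635), which is under 2-fold, and its STOSE mean of 4.62 lay under the background. By the methods' test its adjusted p was 0.0592. Thus *Cxcl12* and *Cxcr4* were both above background in M0505 cells, and *Cxcl12* and *Cxcr7* in STOSE cells. The reading by line means also holds only at the 95th percentile of the olfactory receptors. At the 90th (4.38) *Cxcr4* was above the level in STOSE cells as well. At the 99th (5.52) both receptor genes were under it in both lines, and so was *Cxcl12* in M0505 cells. Of 41 ligand and receptor pairs known from textbooks, *Cxcl12* with *Cxcr7* was the 1 pair in which both genes were called.

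**Figure D2:**
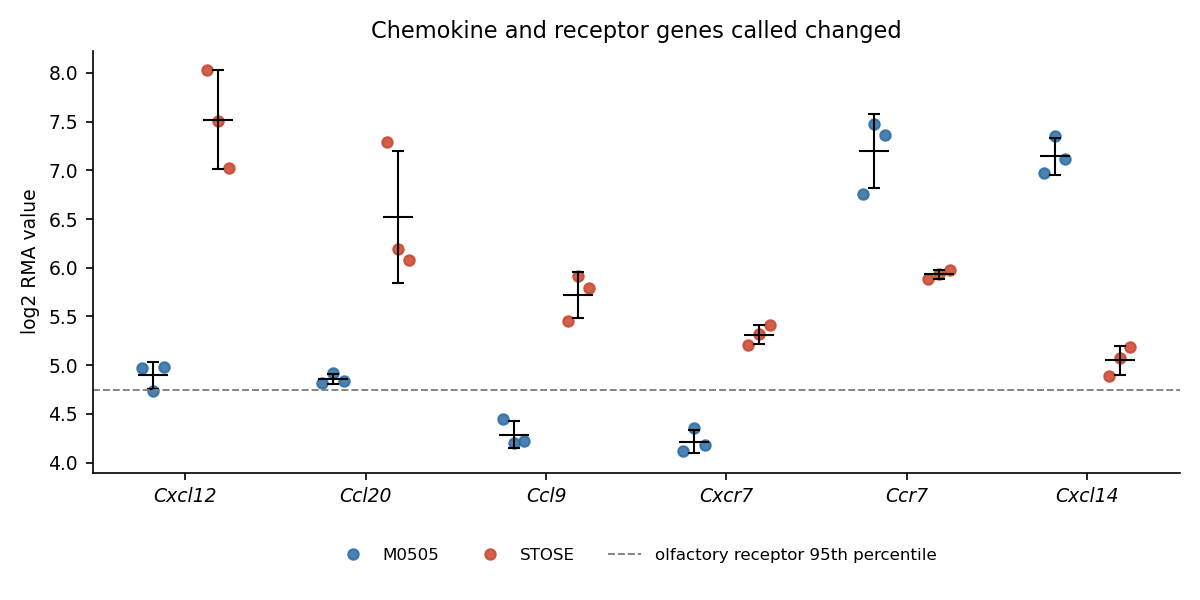
Log2 RMA values of the 6 genes called changed, with 1 point per array, blue for M0505 and red for STOSE, and bars for the mean and SD of 3 arrays. The dashed line is the olfactory receptor 95th percentile. In each gene the arrays of the lines do not overlap, and the STOSE values of *Ccl20* span the widest range, from 6.08 to 7.30.

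*Ccl20*, which draws CCR6-bearing dendritic cells and lymphocytes to epithelia, was called higher in STOSE cells. It read 4.82, 4.92 and 4.84 in M0505 cells and 7.30, 6.19 and 6.08 in STOSE cells (probe set 10347888). STOSE replicate 1 stood about 1 unit above the other STOSE arrays, and all STOSE arrays stood above all M0505 arrays. The rise was 3.16-fold (log2 difference 1.66, SE 0.28, adjusted p = 0.00106) and 2.42-fold without STOSE replicate 1. Its receptor gene *Ccr6* lay under the background in both lines (4.20 ± 0.19 and 4.51 ± 0.21, SD, n = 3), and its log2 fold change of 0.31 had a 95% interval of 0.02 to 0.61 (adjusted p = 0.0655).

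*Ccl9*, a mouse attractant of myeloid cells that acts through CCR1, read 4.44, 4.20 and 4.22 in M0505 cells and 5.45, 5.91 and 5.79 in STOSE cells (probe set 10389214). Every STOSE array was at least 1 unit above every M0505 array. The rise was 2.69-fold (log2 difference 1.43, SE 0.12, adjusted p = 1.88e-05), or at least 1.97-fold against the background. *Ccl9* lies in a row of ligand genes on chromosome 11 in the order *Ccl5*, *Ccl9*, *Ccl6*, *Ccl3*, *Ccl4*, and it was the 1 called gene of these 5. Its neighbour *Ccl5*, an attractant of T cells and monocytes, was higher by 0.51 (adjusted p = 0.000327), from 5.35 ± 0.03 to 5.86 ± 0.11. *Ccl6*, the neighbour on the other side, differed by 0.24 (adjusted p = 0.043) with both means under the background. *Ccr1*, the receptor gene, was higher by 0.36 (adjusted p = 0.000756), also with both means under the background.

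*Cxcl14*, a ligand made at rest by many epithelia, showed the largest fall of the family. It read 6.97, 7.35 and 7.11 in M0505 cells and 4.89, 5.07 and 5.19 in STOSE cells (probe set 10409579). The STOSE arrays came close to the background level and none reached the M0505 range. The log2 difference was −2.09 (SE 0.11, adjusted p = 1.19e-06), which is 4.27-fold lower.

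*Ccr7*, the receptor that brings T cells and dendritic cells into lymph nodes, was the other gene that fell. It read 6.76, 7.47 and 7.36 in M0505 cells and 5.88, 5.94 and 5.98 in STOSE cells (probe set 10390763). M0505 replicate 1 was the lowest of its line and still above the highest STOSE array. The fall was 2.41-fold (log2 difference −1.27, SE 0.17, adjusted p = 0.000236). The ligands of CCR7 did not pass the test, but both did with the arrays centred on their medians (*Ccl19* 0.28, adjusted p = 0.0118, and *Ccl21a* 0.37, adjusted p = 0.0015), and *Ccl21a* did with the replicate block (adjusted p = 0.0341). *Ccl19* was at 5.00 ± 0.14 and 5.08 ± 0.08 (95% interval of the difference −0.11 to 0.27), and *Ccl21a* at 5.00 ± 0.09 and 5.18 ± 0.09 (0.01 to 0.34, adjusted p = 0.0729). These genes and *Ccl27a* lie together on chromosome 4, have 5, 4 and 3 probe sets on the array, in that order, and have near-identical copies in the mouse genome, so their copies cannot be told apart here.

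Outside the naming rule, *Ccrl1* (*Ackr4*), the atypical receptor that clears CCL19, CCL21 and CCL25, also fell. Its arrays read 7.23, 7.20 and 7.15 in M0505 cells and 5.49, 5.44 and 5.79 in STOSE cells, a 3.07-fold fall (log2 difference −1.62, SE 0.10, adjusted p = 2.25e-06). *Ccl25*, whose signaling receptor is CCR9, read 6.68, 6.88 and 6.62 in M0505 cells and 7.80, 7.67 and 7.50 in STOSE cells. It was 1.91-fold higher (log2 fold change 0.93, 95% interval 0.71 to 1.16, adjusted p = 6.31e-05), just short of the 2-fold threshold. It passed that threshold without M0505 replicate 2 (1.01 on the log2 scale) and without STOSE replicate 3 (1.01). *Ccr9* was under the background in both lines (3.49 and 3.49).

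**Figure D3:**
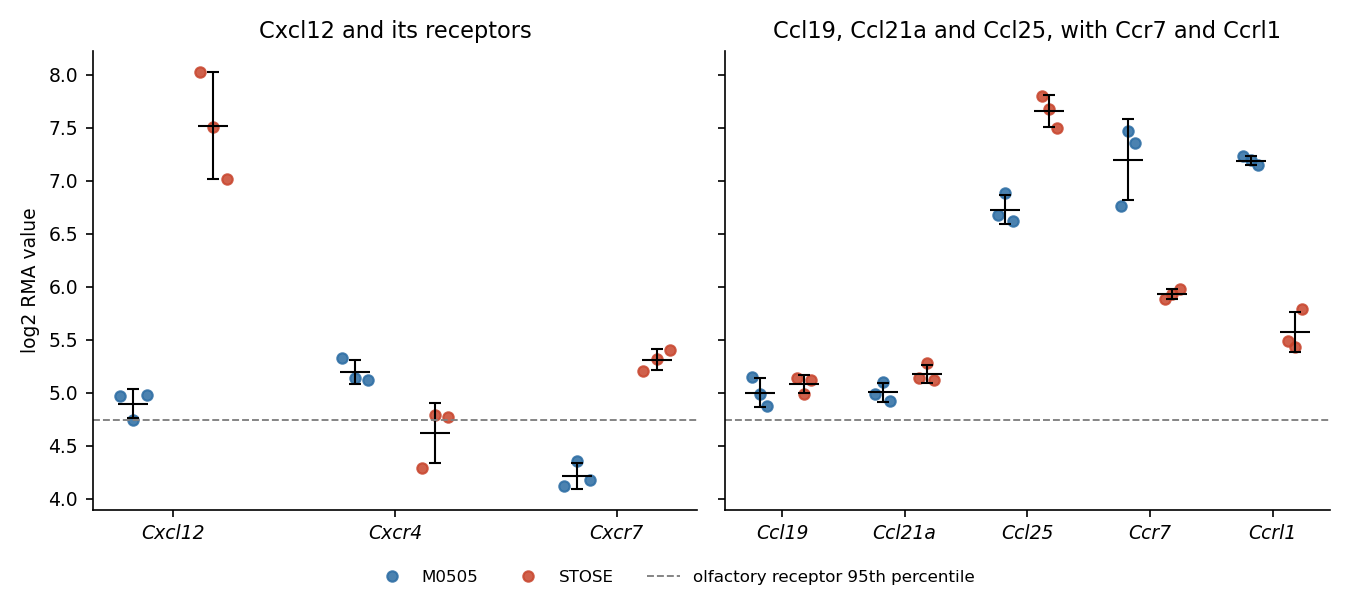
Log2 RMA values per array of *Cxcl12* with its receptors *Cxcr4* and *Cxcr7* (left), and of *Ccl19*, *Ccl21a* and *Ccl25* with the receptor gene *Ccr7* and the scavenger gene *Ccrl1* (right), in M0505 (blue) and STOSE cells (red), with mean and SD of 3 arrays and the background level as a dashed line. *Cxcl12* and *Cxcr7* are higher in STOSE cells and *Cxcr4* lower, and *Ccr7* and *Ccrl1* are lower while *Ccl25* is higher.

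*Ccl2*, the main ligand of CCR2, read 11.32, 11.12 and 11.16 in M0505 cells and 10.73, 10.99 and 10.91 in STOSE cells. The STOSE mean was lower, with a log2 difference of −0.32 (95% interval −0.52 to −0.12, adjusted p = 0.0127). *Ccl7*, the next gene on chromosome 11 and also a ligand of CCR2, was higher by 0.32 (0.13 to 0.51, adjusted p = 0.0106), from 9.69 ± 0.12 to 10.01 ± 0.10. With each array centred on its median, a step that raises every log2 difference by 0.20, *Ccl2* was at −0.12 and no longer passed (adjusted p = 0.229), and by the methods' test its adjusted p was 0.0597, whereas *Ccl7* was at 0.52 (adjusted p = 0.000874). *Ccl11*, the eosinophil attractant that follows them, went from 5.00 ± 0.10 to 5.25 ± 0.04, a difference of 0.24 (adjusted p = 0.0148, and 0.0538 without M0505 replicate 3 and 0.0534 without STOSE replicate 2). The other genes of that row, *Ccl12*, *Ccl8* and *Ccl1*, were under the background in both lines. *Ccr2* was also under it, at 2.83 and 2.79.

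Of the membrane-anchored ligands, which are shed by ADAM10 and ADAM17, *Cxcl16* was lower in STOSE cells at the adjusted p alone. It read 8.59, 8.68 and 8.62 against 8.12, 7.54 and 7.45, a log2 fold change of −0.93 (95% interval −1.30 to −0.56, adjusted p = 0.00117). STOSE replicate 1 was the highest of its line, and without it the value was −1.14, past the 2-fold threshold. *Cx3cl1* was at 8.66 ± 0.03 and 8.54 ± 0.22 (−0.36 to 0.12, adjusted p = 0.339, and 0.0401 without STOSE replicate 1), and *Cx3cr1* at 5.64 ± 0.14 and 5.91 ± 0.27 (−0.03 to 0.59, adjusted p = 0.114). *Cx3cr1* passed without STOSE replicate 1 (0.41, adjusted p = 0.0152), with the arrays centred (0.48, adjusted p = 0.0148), after a further quantile normalization (adjusted p = 0.0417) and with the replicate block (adjusted p = 0.0147).

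*Cxcl1*, a neutrophil attractant and a target of Nf-κB, read 6.98, 6.55 and 6.76 in M0505 cells and 7.38, 7.43 and 7.25 in STOSE cells. The ranges did not overlap, and the log2 difference of 0.59 (SE 0.11, adjusted p = 0.00165) was under 2-fold. The other genes of its row on chromosome 5, *Cxcl5*, *Cxcl3*, *Cxcl15* and *Cxcl2*, were under the background in both lines, as were the receptor genes *Cxcr1* and *Cxcr2*. Among the interferon-induced ligands of CXCR3, *Cxcl10* read 8.53, 8.54 and 8.53 against 8.62, 8.82 and 8.76 (difference 0.19, adjusted p = 0.0352). In 5 of the 6 fits with 1 array left out, all but that without STOSE replicate 1, *Cxcl10* did not pass, with adjusted p up to 0.124. *Cxcl9* differed by 0.26 (adjusted p = 0.0091), from 4.88 ± 0.10 to 5.15 ± 0.03, and *Cxcl11* was under the background in both lines. *Cxcr3* was at 4.93 ± 0.09 and 5.18 ± 0.33 (adjusted p = 0.182, and 0.0248 with the arrays centred).

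*Ccl17*, a ligand of CCR4, was higher by 0.50 (adjusted p = 0.00102), from 6.46 ± 0.15 to 6.97 ± 0.06, and *Cxcl17*, found in mucosal epithelia, by 0.34 (adjusted p = 0.00405), from 5.03 ± 0.01 to 5.37 ± 0.13. *Ccl27a*, a ligand of CCR10 in skin, was lower, with a log2 difference of −0.52 (95% interval −0.68 to −0.36, adjusted p = 0.000302), from 8.95 ± 0.11 to 8.43 ± 0.02. *Ccr10* was at 5.32 ± 0.06 and 5.32 ± 0.22 (95% interval of the difference −0.25 to 0.24). *Ccl4*, an attractant of monocytes and T cells, was at 4.60 ± 0.06 and 4.76 ± 0.04, either side of the background level of 4.74, a difference of 0.16 (adjusted p = 0.0493). It did not pass when any 1 of the 6 arrays was left out (adjusted p from 0.0578 to 0.121) or after a further quantile normalization (0.09, adjusted p = 0.222).

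Without the 2-fold limit, 18 of the 55 genes were higher and 6 lower in STOSE cells, together 43.6%, against 56.5% of all genes (31.6% higher and 24.8% lower). These were 20 of 36 ligands (55.6%) and 4 of 19 receptors (21.1%). Under the background in both lines were 13 of 19 receptors (68.4%) and 16 of 36 ligands (44.4%). The arrays of the lines did not overlap in 20 genes with STOSE above and 6 with STOSE below, against 64.6% of all genes without overlap in either direction. The difference between ligands and receptors was not tested. By genome position, 38 of the 55 genes lay within 1 Mb of another member, in 10 clusters, and 17 lay alone. Of the 6 called genes 5 lay alone and 1, *Ccl9*, in a cluster. The largest cluster, 7 receptor genes on chromosome 9, held 0 genes above the background in either line.

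**Figure D4:**
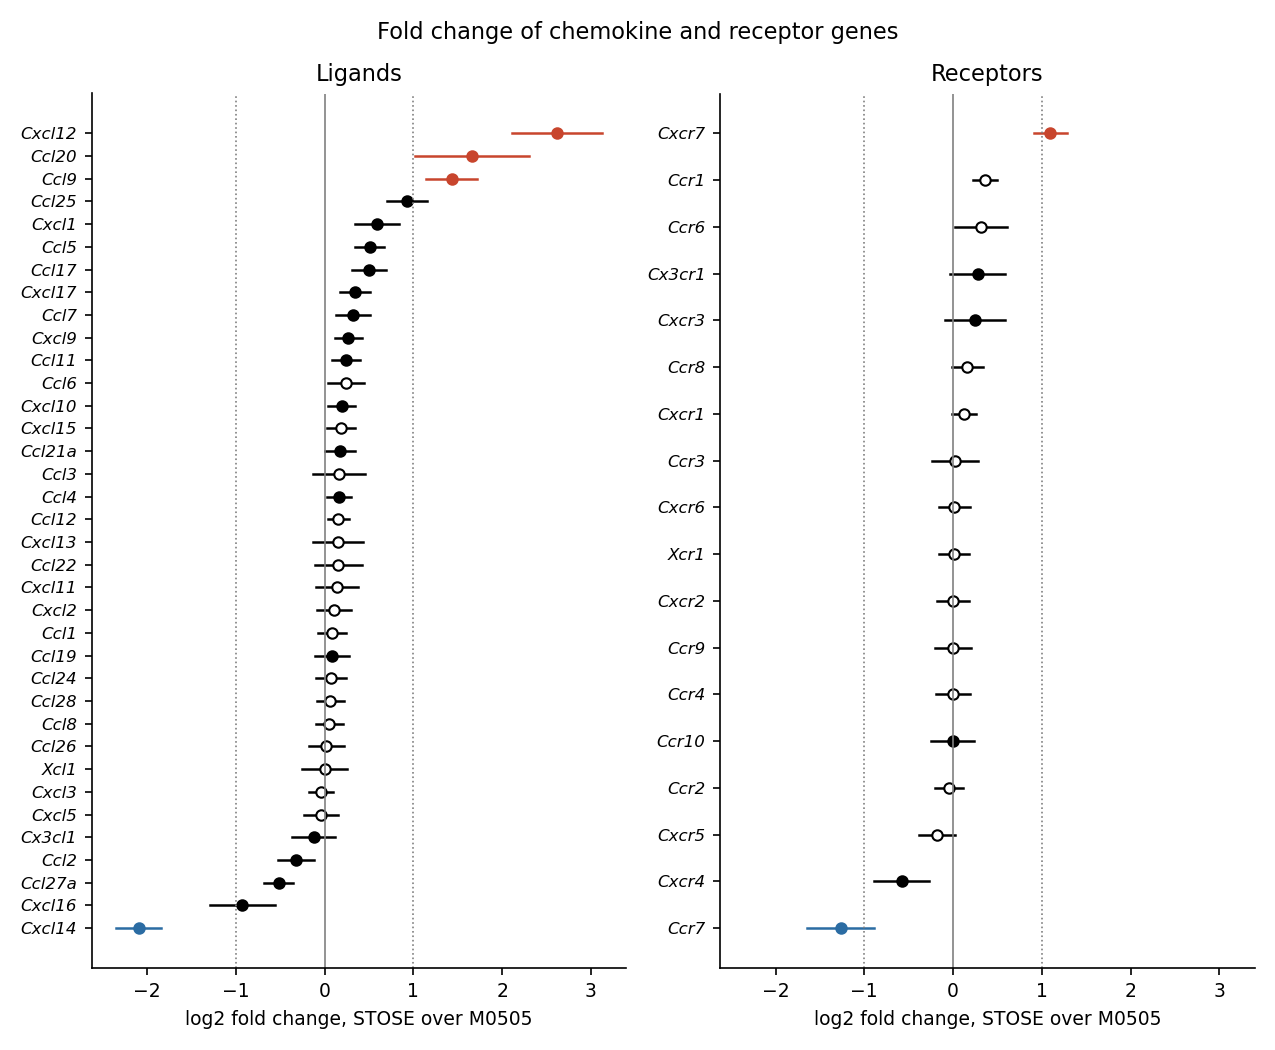
Log2 fold change of STOSE over M0505 for the ligand genes (left) and the receptor genes reported here (right), with 95% intervals from limma. Red marks genes called higher, blue genes called lower, filled points genes above the background in at least 1 line and open points those under it in both, and dotted lines mark 2-fold. The genes beyond the dotted lines are the 6 called, and open points lie near 0.

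Other genes of the chemokine pathway were read from a list of 69 genes on the array that relay, limit, shape or induce chemokine signals. Of these, 6 were called higher and 8 lower, or 20.3%, against 12.5% of all genes. Above background in at least 1 line were 57 of the 69, and 17.1% of all genes above it were called. Among 6 atypical or accessory receptors, *Ccrl1*, *Ccrl2*, which binds chemerin, and *Cd74*, the invariant chain that also serves as a receptor of MIF, fell, with log2 differences of −1.62, −1.33 and −2.27. *Darc* (*Ackr1*) was higher by 0.93 (adjusted p = 8.15e-06), under 2-fold. *Cd74* read 6.37, 6.82 and 6.77 in M0505 cells and 4.30, 4.42 and 4.44 in STOSE cells, where it lay under the background, so its fall was at least 3.76-fold.

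Of 31 genes that carry the signal inside the cell or switch it off, 2 rose and 2 fell. The share was 12.9%, close to the 12.5% of all genes. *Elmo1*, a partner of DOCK proteins in Rac activation, rose from 5.73 ± 0.22 to 7.71 ± 0.12 (3.95-fold, adjusted p = 2.04e-06), and *Grk5*, a kinase that desensitizes receptors, from 6.25 ± 0.15 to 7.87 ± 0.13 (3.08-fold, adjusted p = 2.10e-06). *Ptk2b*, a tyrosine kinase activated downstream of chemokine receptors, fell from 10.90 ± 0.05 to 8.88 ± 0.13 (4.06-fold, adjusted p = 2.16e-07). *Rgs16*, which switches off inhibitory G proteins, fell from 7.40 ± 0.35 to 5.75 ± 0.23 (3.15-fold, adjusted p = 7.14e-05). The genes of the inhibitory G protein α subunits, *Gnai1*, *Gnai2* and *Gnai3*, were above background in both lines and none was called.

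Of 10 genes that cleave or present chemokines, 1 rose and 1 fell, or 20.0%, against 12.5% of all genes. All 10 were above background in at least 1 line, where 17.1% of all genes were called. *Mmp2*, a protease that inactivates CXCL12, rose by 1.03 (adjusted p = 1.51e-06), and *Mmp14*, which activates MMP2, fell by 1.28 on the log2 scale (adjusted p = 1.81e-05). Of 19 genes that induce chemokines or restrain their induction, 3 rose and 2 fell. That is 26.3%, against 12.5% of all genes and 17.1% of those above background in at least 1 line. *Il1a*, an alarm cytokine of epithelia, read 3.69, 3.34 and 3.45 in M0505 cells and 6.33, 6.57 and 6.35 in STOSE cells, a log2 difference of 2.92 (SE 0.10, adjusted p = 1.50e-07) and a rise of at least 3.19-fold against the background. The Nf-κB subunit genes *Nfkb1* (1.02) and *Nfkb2* (1.07) were called higher close to 2-fold, and both dropped under it without M0505 replicate 3 (0.95 and 0.996) and without STOSE replicate 1 (0.99 and 0.98). *Irf7*, which drives interferon genes, fell by 1.24 on the log2 scale (adjusted p = 2.50e-05). *Irf1*, another gene of this list, was higher by 0.58 (adjusted p = 0.0004), under 2-fold. The interferon-induced ligand genes *Cxcl9* and *Cxcl10* were higher by 0.26 and 0.19, and *Cxcl10* did not pass in 5 of the 6 fits with 1 array left out. A relation between these genes was not tested.

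**Figure D5:**
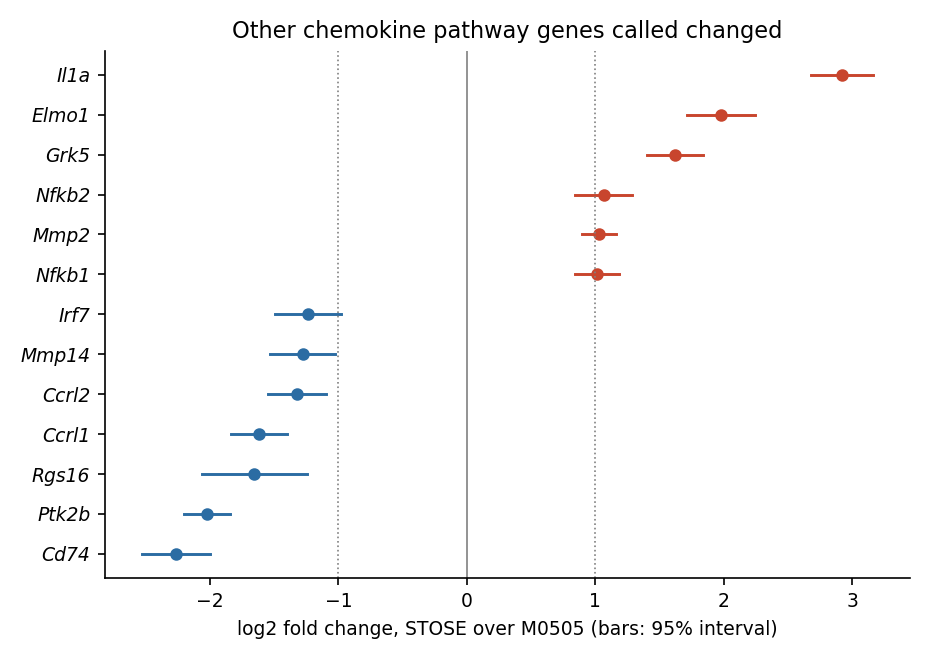
Log2 fold change of STOSE over M0505 with 95% intervals from limma for the other chemokine pathway genes that were called changed and are reported here, red for higher and blue for lower in STOSE cells. *Il1a* is the largest rise and *Cd74* the largest fall, and *Nfkb1*, *Nfkb2* and *Mmp2* lie next to the dotted 2-fold line.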

How the data were processed

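RNA of M0505 and STOSE cells (3 biological replicates each, per the labels) was hybridized to Affymetrix Mouse Gene 1.0 ST arrays. The authors normalized the arrays by RMA in Affymetrix Expression Console and deposited log2 values with 1 column per array. RMA quantile normalizes across arrays, a step meant to remove a shift shared by most genes. The medians over the genes used here still differed, at 6.46 to 6.49 on the M0505 arrays and 6.25 to 6.29 on the STOSE arrays. The RMA version, annotation release and genome build are not given in the sources used here. The deposited means and linear fold changes of the authors were not used. All 6 value columns were matched by name and 0 were left over. An array has no read depth, and its number of replicates limits the precision: with 3 arrays a line, the smallest two-sided p of an exact permutation test is 0.1.

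Of 28944 probe sets, 23530 had a symbol, and the one with the highest mean over the 6 arrays stood for each gene, giving 20405 genes. In R 4.3.3, limma 3.58.1 (lmFit, then eBayes) compared the lines without covariates, and p-values were adjusted by Benjamini-Hochberg across all genes. A call needed an adjusted p under 0.05 and at least 2-fold. On simulated data for this comparison (20405 genes, 200 changed) 99.5% were recovered with 0 false calls. The planted changes were all larger than 2-fold and the noise was independent between genes. The simulation therefore does not bear on calls near the threshold. Standard errors, 95% intervals and p-values come from that fit, and ± gives the SD over 3 arrays. Where 1 line lay under the olfactory receptor 95th percentile, a fold of at least the stated size was taken against that percentile. Genes named singly were all called members, all members above that percentile in at least 1 line, the partners of called members, and called genes of the pathway list, except that 1 member and 1 pathway gene are counted but not reported singly here. *Darc*, *Irf1*, the *Gnai* genes, single markers and members named for their genome position or promoter motif were added after their values were seen. Members and lists were chosen with earlier results of these data known. The alternatives were 2 further normalizations, 2 filters on dim genes, 2 treatments of probe sets, 2 other tests (robust limma with a trend on intensity, and the t-test of the study's methods, called the methods' test), other thresholds, a replicate block and leaving out each array.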

Additional observations from a re-analysis of the deposited data

How the results depend on the processing

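The counts of called family members, 4 higher and 2 lower, depended most on the thresholds. With no fold threshold they were 18 and 6, at 4-fold 1 and 1 (*Cxcl12* and *Cxcl14*), and without the dimmest 50% of genes, which left 10 members in the test, 0 and 1. The pathway counts of 6 and 8 were 34 and 15 with no fold threshold, 1 and 2 at 4-fold, 10 higher with arrays centred on their medians, and 4 lower without the dimmest 50% of genes. The number of members above background was 26, with 30 at the 90th and 16 at the 99th percentile of the olfactory receptors. With 1 array left out in turn the family counts ranged from 4 to 5 higher and from 2 to 3 lower, and the pathway counts from 4 to 7 higher and stayed at 8 lower. Centring raised the median log2 fold change of all genes by 0.20 and moved the share of higher genes among all calls from 39.2% to 55.5% (1466 higher and 1177 lower, against 1000 and 1548); *Ccl25* passed 2-fold there (1.13) and after a further quantile normalization (1.09). Centring turned 6 of the 12 negative members positive, 4 of them under the background in both lines. The other two were *Cx3cl1* and *Ccr10*: *Cx3cl1* was at 0.0764 with arrays centred, and *Ccr10* at 0.20 with arrays centred, 0.03 without M0505 replicate 3, and 0.01 and 0.10 without STOSE replicates 2 and 3, within a range of −0.12 to 0.10 over the left-out arrays. At the adjusted p alone, 15 of the 20 members above background that passed did so under every alternative run on them, 5 (*Ccl2*, *Ccl4*, *Ccl11*, *Cxcl10* and *Cxcr4*) were lost under at least 1, and 5 others (*Ccl19*, *Ccl21a*, *Cx3cl1*, *Cx3cr1* and *Cxcr3*) were gained under at least 1. The methods' t-test called 4 and 2 members after adjustment, and also before it, a setting chosen after seeing the data.

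Deviations from the line mean correlated by 0.26, 0.04 and 0.25 between arrays of the same number in the lines. Between arrays of different number the correlations ran from −0.29 to 0.12. Whether the shared numbers mark a pairing was not tested, and the labels name none. With the replicate block the counts were 4 higher and 2 lower in the family and 6 and 8 in the pathway list.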

Other observations

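Among the 29 family members under the background in both lines, 25 had a positive log2 fold change, with a median of 0.06, and 4 passed the adjusted p alone, all higher in STOSE cells (*Ccl12*, *Ccl6*, *Ccr1* and *Cxcl15*). Over all 5643 genes under the background in both lines, 4172 were positive, with a median of 0.08, and 15.7% passed the adjusted p alone in the higher direction. The share for these members was 13.8%. STOSE replicate 1 held the highest of the 3 STOSE values in 40.9% of all genes and in 18 of the 55 members, among them *Cxcl12*, *Ccl20* and *Cxcl16*.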
